A study of Mus musculus with 6 samples.

Results

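Potassium channel genes were examined in RNA sequencing data from the brains of 3 Kdm5c deficient and 3 wild type mice, all adult males. The genes were taken from the deposited count table by symbol: a row was a member if its symbol began with Kcn, 1 further letter and a number, and if it had at least 60 reads over the 6 libraries. Of 43346 rows, 83 fitted this pattern. Kcnj13 and Kcnq1ot1 were left out by name, 13 rows fell below the read minimum, and 68 remained. Just inside the minimum lay Kcnk15 with 77 reads and Kcnq1 with 85, and just outside lay Kcnn4 with 48 and Kcnj15 and Kcnv2 with 18 each. One of the 68, Kcnd3os, is annotated as an antisense RNA of Kcnd3 and encodes no channel. All 68 also passed the low-count filter of the genome-wide test.

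The deficient mice came from mating a C57BL/6 mother that carried 1 deficient copy of Kdm5c to a wild type 129 father, as did the wild type mice, and both groups are labelled as carrying C57BL/6 and 129 genomes in equal parts. The labels describe neither the Kdm5c allele nor the brain region, and do not say how many litters were used. Mice are treated as replicates, so p-values set the genotype difference against the spread between mice of the same genotype, among these 6 samples only.

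Potassium channels let potassium leave or enter cells and so set the resting potential of neurons and glia, shape the action potential and limit repetitive firing. Voltage-gated (Kv) channels are tetramers of pore-forming subunits that open on depolarisation. Calcium- and sodium-activated channels follow ion entry, inward rectifiers conduct near rest or under G protein control, two-pore-domain channels carry leak current, and small accessory subunits tune the gating of pores. Kdm5c, which is X-linked, encodes an enzyme that removes methyl groups from lysine 4 of histone H3, a mark of active promoters and enhancers.

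Libraries held 20221675 to 24555412 counts. Kdm5c itself was at 73.9, 65.5 and 78.9 CPM (the count scaled to a common library total) in deficient mice 1, 2 and 3, against 77.6, 82.8 and 84.0 CPM in wild type mice, so deficient mouse 3 overlapped the wild type range (log2 fold change -0.16 ± 0.07, SE, adjusted p = 0.196). The counts do not resolve exons, so the genotype labels are not checked by this level. Markers of neurons were present in every library: Snap25, Syt1, Rbfox3 and Tubb3 together reached 4963 to 5652 CPM in deficient mice and 4805 to 5097 CPM in wild type mice. In the summed level of 13 cerebellar markers all deficient mice were below all wild type mice, and deficient mouse 2 stood furthest apart. The sum was 1583, 282 and 1210.0 CPM in deficient mice and 1745, 1830.0 and 1970.0 CPM in wild type mice, with none of the 13 at 0. All 13 had a negative log2 fold change, and none was called. Fewer cells of a type and less RNA per cell cannot be told apart in such bulk samples, and any part of these markers in the results below was not tested. Over all 15127 tested genes, 371 were higher and 375 lower in deficient mice at an adjusted p under 0.05 (quasi-likelihood test of edgeR, Benjamini-Hochberg adjustment).

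Most potassium channel genes did not pass this test. Kcne1l was higher and Kcnt1 was lower in deficient brain, which is 2 of 68 genes or 2.94%, against 4.93% of all tested genes. By direction, 1.47% of the channel genes were higher, against 2.45% of all tested genes, and 1.47% were lower, against 2.48%. At an unadjusted p under 0.05 there were 23 channel genes (33.8%, against 24.9% of all tested genes), and in 20 the mice of the genotypes did not overlap (29.4%, against 30.8%). Deficient mice were the higher ones in 11 of these 20 (16.2% of the channel genes, against 14.9% of all) and the lower ones in 9 (13.2%, against 16%). At an adjusted p under 0.1 there were 10 higher and 5 lower channel genes (22.1%, against 11.8% of all tested genes), and under 0.01 there were none (0.291% of all tested genes). The counts of called genes also moved with the mice and the tool. Without deficient mouse 1, 13 channel genes were higher and 8 lower, or 30.9% against 13.6% of all tested genes. With deficient mouse 2 left out the calls were again Kcne1l and Kcnt1 (4.47% of all tested genes were then called). With deficient mouse 3 or wild type mouse 1, 2 or 3 left out no channel gene was called, against 1.01%, 0.289%, 0.346% and 0.648% of all tested genes. DESeq2 called 7 higher and 4 lower (16.2%, against 8.31%), and limma-voom called only Kcne1l higher and Kcnt1 lower, against 4.65% of all tested genes.

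Changes were small. The median log2 fold change of the 68 genes was 0.05, against 0.00 for all tested genes, and their median size without sign was 0.235, against 0.119. Fitted fold changes past 1.5-fold occurred in 1 of the 68 genes (1.47%, against 5.57% of all tested genes), which was Kcne1l. Of the 68, 42 had a positive and 26 a negative log2 fold change. The lowest mean level was 0.573 CPM, for Kcnk15.

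**Figure D1:**
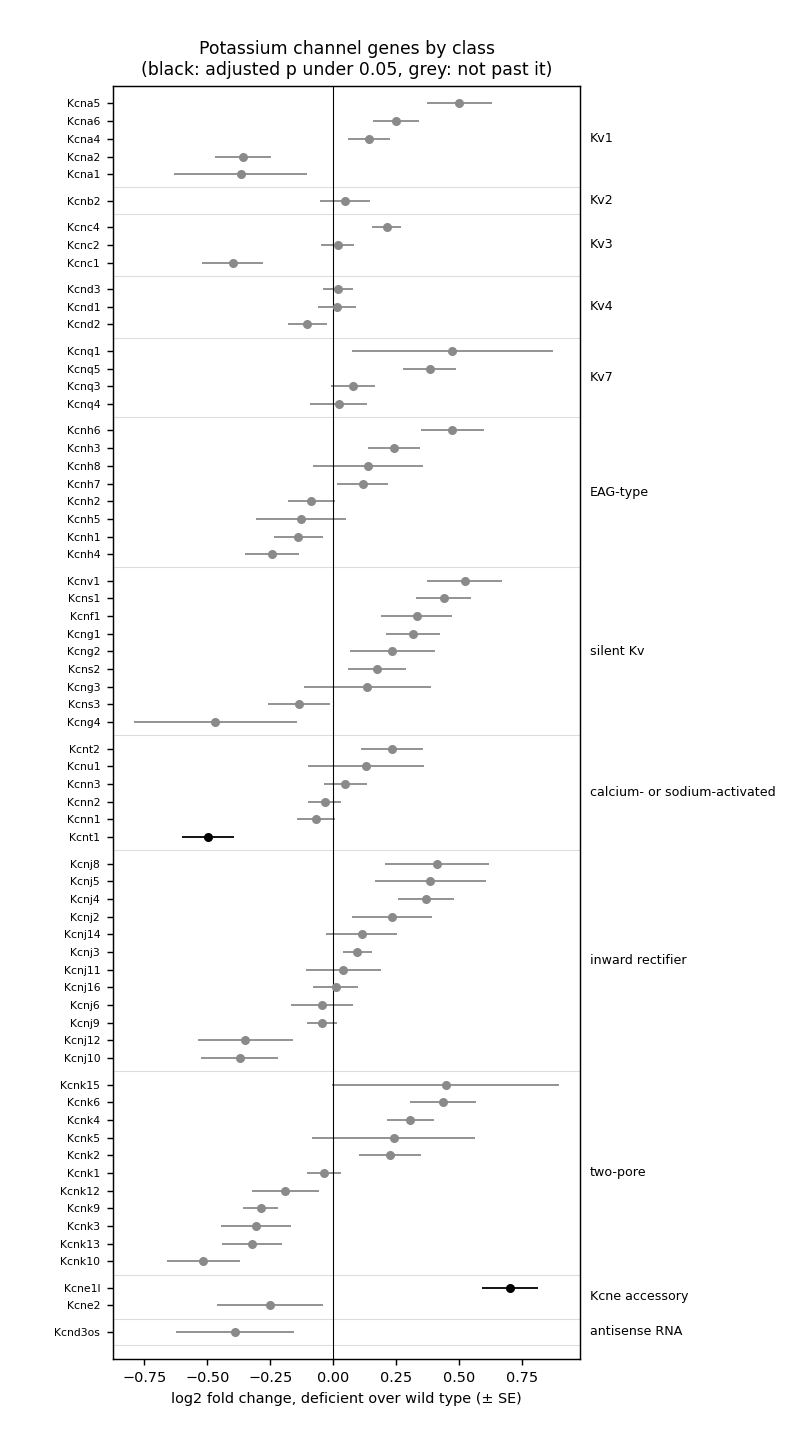
Log2 fold change of deficient over wild type brain (horizontal axis, bars are SE) for 65 of the 68 members, grouped by channel class. Black points, Kcne1l at 0.70 and Kcnt1 at -0.50, had an adjusted p under 0.05, and grey points did not.

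The largest difference was in an accessory subunit. Kcne1l, also known as Kcne5, encodes a single-span membrane protein of the Kcne family, whose human counterpart reduces the current of the KCNQ1 channel. It lies on chromosome X at 142304752 to 142306294 (GRCm38), and Kdm5c lies on the same chromosome at 152233020 to 152274535. Any part of sequence inherited together with the Kdm5c copy in the Kcne1l difference was not tested. Kcne1l was at 14.5, 11.6 and 12.8 CPM in deficient mice 1, 2 and 3, against 7.73, 8.56 and 7.61 CPM in wild type mice. Every deficient mouse was above every wild type mouse, and deficient mouse 2 was the lowest of the deficient ones. Kcne1l rose by a log2 fold change of 0.70 ± 0.11 (SE), or 1.63-fold (adjusted p = 0.0185, edgeR). The adjusted p was 0.0111 without deficient mouse 1 and 0.0049 without deficient mouse 2. It missed the threshold without deficient mouse 3 (0.0511) and without wild type mouse 1, 2 or 3 (0.0912, 0.0726 and 0.0698), while the log2 fold change stayed between 0.62 and 0.78 over the 6 fits. In the authors' deposited table, turned to deficient over wild type, the log2 fold change was 0.56 with an unadjusted p of 1.25e-06.

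The promoter of Kcne1l is shown because it is the higher member and because the mark removed by Kdm5c is typical of promoters rich in CG dinucleotides. Of the 68 genes, 46 matched the RefSeq promoter table (GRCm38.p6) with 61 windows of 300 bases around annotated starts. The Kcne1l window holds 12 CG dinucleotides, and 39.6% of all 32851 windows hold at least as many. The 46 matched channel genes also had a median of 12 per window, with a range of 1 to 49, and the median of all windows was 7. The stretch before both the RefSeq and the GENCODE start, chrX:142306295-142306448 on the minus strand, is printed 5′ to 3′ with each CG in capitals.
Kcne1l promoter: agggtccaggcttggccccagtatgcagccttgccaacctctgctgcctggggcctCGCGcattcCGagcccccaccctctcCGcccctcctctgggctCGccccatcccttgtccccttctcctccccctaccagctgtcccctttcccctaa
These 154 bases hold 5 CG dinucleotides. The data contain no measurement of histone methylation or of transcript starts, so the sequence is a description only.

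The other Kcne member, Kcne2, is known from the choroid plexus and was at 6.49, 3.65 and 4.33 CPM in deficient mice and 6.60, 5.38 and 5.12 CPM in wild type mice. The groups overlapped, and its log2 fold change was -0.25 ± 0.21 (SE, adjusted p = 0.491). Summed over 10 choroid plexus markers, none at 0, the level was 920.4, 724 and 614 CPM in deficient mice and 951, 815 and 877 CPM in wild type mice. Kcnq1, the pore best known as a partner of Kcne proteins, had few reads, at 0.893, 0.336 and 1.01 CPM in deficient mice and 0.567, 0.538 and 0.481 CPM in wild type mice. Deficient mouse 2 was below all wild type mice and the other deficient mice were above them, and the log2 fold change of 0.47 ± 0.40 did not pass (adjusted p = 0.494). Exons of Kcnq1 overlap those of an antisense gene, so its reads are uncertain.

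Among calcium- and sodium-activated channels, Kcnt1 fell. Kcnt1 encodes Slack, a sodium-activated pore that carries late outward current after bursts, and human variants of it are a cause of childhood epilepsy. The gene lies on chromosome 2 at 25863734 to 25918273 (GRCm38). Kcnt1 was at 187, 137 and 172 CPM in deficient mice, against 225, 250.2 and 225 CPM in wild type mice. All deficient mice were below all wild type mice, and deficient mouse 2 was lowest. The summed cerebellar markers given above had the same order of deficient mice, and their part in the Kcnt1 difference was not tested. The log2 fold change was -0.50 ± 0.10 (SE), so that wild type brain had 1.41 times the deficient level, and the adjusted p was 0.0359 by edgeR. Without deficient mouse 2 the difference was smaller, at -0.38, and passed (adjusted p = 0.0115), as it did without deficient mouse 1 (0.00926). It did not pass without deficient mouse 3 (0.0818) or without wild type mouse 1, 2 or 3 (0.11, 0.155 and 0.093).

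Kcnt2, the close relative of Kcnt1 that encodes the sodium-activated channel Slick, was at 14.6, 19.8 and 18.3 CPM in deficient mice and 13.3, 15.7 and 15.9 CPM in wild type mice, with 0.23 ± 0.12 on the log2 scale (SE, adjusted p = 0.275). The groups overlapped, with deficient mouse 1 inside the wild type range, and without that mouse the adjusted p was 0.0499. Without deficient mouse 2 the value was 0.14 (0.561). Whether Kcnt1 and Kcnt2 differed in their response was not tested. The small-conductance calcium-activated channels Kcnn1, Kcnn2 and Kcnn3, which carry the afterhyperpolarisation, lay close to 0, with Kcnn1 at -0.07 ± 0.07 (SE, adjusted p = 0.607). Exons of Kcnt2, of Kcnn1 and Kcnn2, and of Kcnma1 (given below) overlap those of genes on the opposite strand, so their reads are uncertain. The 6 members of the class were grouped by symbol letter, which is the only reason that Kcnu1 is among them. Scaled by exon length and summed, the class was at 33.7, 29.9 and 33.7 CPM per kb in deficient mice, against 38.2, 41.1 and 38.9 CPM per kb in wild type mice. The sum was lower in every deficient mouse, and Kcnt1 was its largest term at a mean level of 20.99 CPM per kb. Kcnma1, the pore of the calcium-activated BK channel, is not taken by the symbol pattern and is outside this sum. Its log2 fold change was -0.11 ± 0.08 (SE, adjusted p = 0.429 by edgeR).

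**Figure D2:**
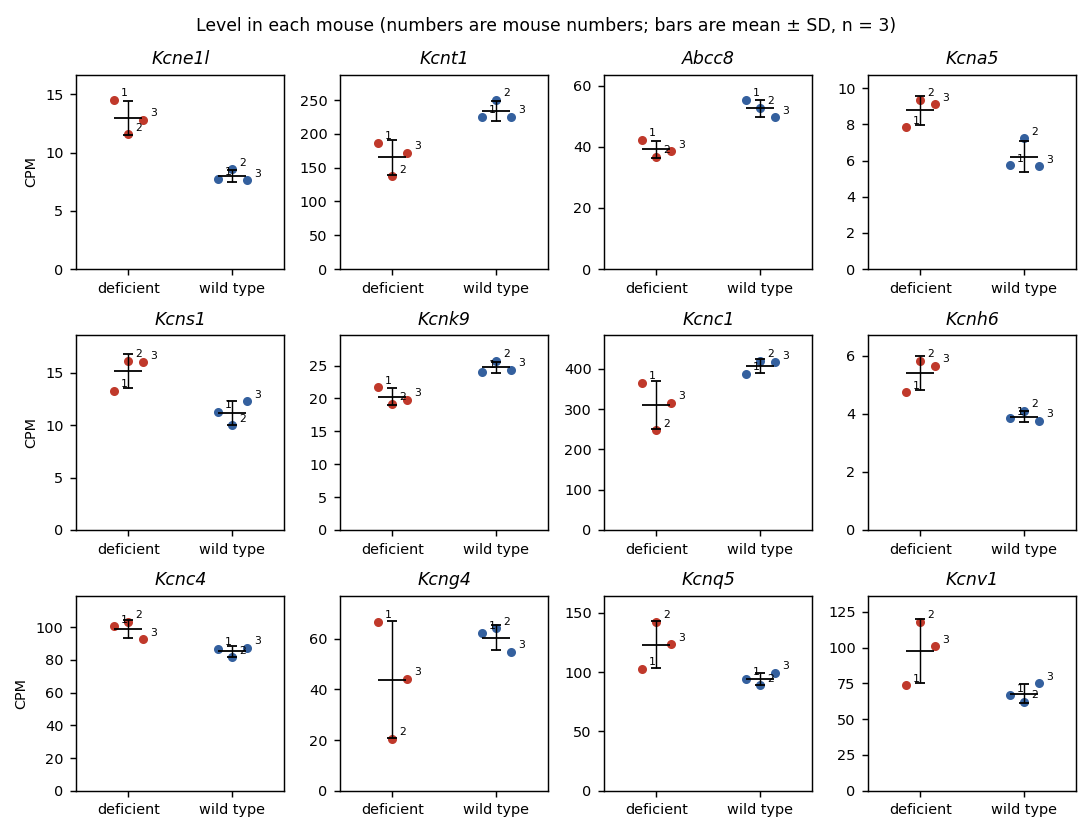
Level in CPM (vertical axis, from 0) of 11 channel genes and the partner gene Abcc8 in each deficient (red, left) and wild type (blue, right) mouse, with mean and SD. The genotypes are apart in Kcne1l, Kcnt1 and Abcc8, while deficient mouse 1 lies at or near the wild type range in Kcng4 and Kcnv1.

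Kv1 channels sit on axons and set the threshold and timing of spikes. None of the 5 Kv1 genes passed by edgeR's quasi-likelihood test, and 3 had an unadjusted p under 0.05, against 24.9% of all tested genes. DESeq2 called 1 higher and 1 lower, where 8.31% of all tested genes were called. Kcna5 was at 7.85, 9.36 and 9.12 CPM in deficient mice and 5.75, 7.24 and 5.69 CPM in wild type mice, without overlap (log2 fold change 0.50 ± 0.13, SE, adjusted p = 0.0617). Kcna2, one of the main axonal subunits, lay the other way, at 104, 91.0 and 121 CPM in deficient mice and 117, 142 and 146 CPM in wild type mice. Deficient mouse 3 overlapped the wild type range in Kcna2, and its log2 fold change was -0.36 ± 0.11 (SE, adjusted p = 0.0981). Kcna6 had 0.25 ± 0.09 (SE, adjusted p = 0.137), although its exons overlap those of an antisense gene. Both Kcna5 and Kcna2 were called by DESeq2 (adjusted p = 0.0409 and 0.0184), and Kcna5 was called without deficient mouse 1 (0.0273).

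Kv2 channels, delayed rectifiers of neuronal cell bodies, and Kv4 channels, which carry the A-type current of dendrites, had no called gene. None of their 5 genes had an unadjusted p under 0.05 by edgeR, DESeq2 or limma-voom. Kcnd2 was at 170.0 ± 14.9 CPM in deficient mice and 183 ± 14.3 CPM in wild type mice (SD, n = 3 each). The log2 fold changes were 0.05 ± 0.10 for Kcnb2, -0.10 ± 0.08 for Kcnd2, 0.02 ± 0.06 for Kcnd3 and 0.02 ± 0.08 for Kcnd1 (SE). Those of Kcnb2, Kcnd3 and Kcnd1 changed sign in some fits that left out a mouse. Exons of Kcnd3 overlap those of a non-coding gene on the opposite strand. Kcnd1 lies on chromosome X, as does Kcne1l.

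Kv3 channels repolarise fast-spiking neurons and have their highest known levels in cerebellum and in parvalbumin interneurons. No Kv3 gene passed by edgeR, although 3 of the 4 had an unadjusted p under 0.05, against 24.9% of all tested genes. Their directions were mixed. Kcnc1 was at 366, 247 and 315 CPM in deficient mice and 388, 420.1 and 416 CPM in wild type mice, so all deficient mice were below all wild type mice and deficient mouse 2 was lowest. Its log2 fold change was -0.40 ± 0.12 (SE, adjusted p = 0.0888), and -0.26 (0.0618) without deficient mouse 2. In Kcnc4, by contrast, the deficient mice were the higher ones, at 100.5, 103 and 92.6 CPM, against 86.8, 81.6 and 87.6 CPM in wild type mice, with 0.21 ± 0.06 on the log2 scale (SE, adjusted p = 0.0647). Without deficient mouse 1, Kcnc1 was called lower (adjusted p = 0.0112), and DESeq2 called Kcnc1 lower and Kcnc4 higher (0.00772 and 0.042). Beside these values stand the summed cerebellar markers given above, below wild type in all deficient mice and lowest in deficient mouse 2. The part of these markers in the difference was not tested. Pvalb, which marks parvalbumin interneurons and is also made in the cerebellum, was at 143, 56.7 and 102 CPM in deficient mice and 159.8, 171 and 167 CPM in wild type mice, without overlap (log2 fold change -0.72 ± 0.26, SE, adjusted p = 0.134). It is 1 of 7 listed inhibitory neuron markers, of which 3 had a negative log2 fold change and none was called or at 0. Their summed level was 1332, 1296 and 1332 CPM in deficient mice and 1366, 1329 and 1397 CPM in wild type mice, and its part was not tested.

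Kv7 channels carry the M-current, which holds neurons below threshold and is closed by muscarinic receptors. Kcnq3 and Kcnq5 are among the genes for it. No Kv7 gene passed by edgeR, and 1 of the 5 had an unadjusted p under 0.05, against 24.9% of all tested genes. DESeq2 called 1 higher, where 8.31% of all tested genes were called. Kcnq5 was at 103, 143 and 123 CPM in deficient mice, against 94.3, 88.9 and 99.5 CPM in wild type mice, so all deficient mice were higher. Its log2 fold change of 0.38 ± 0.11 (SE) did not pass with edgeR (adjusted p = 0.0722), passed with DESeq2 (0.00726) and without deficient mouse 1 (0.00871), and was 0.26 without deficient mouse 2. Exons of Kcnq5 overlap those of a non-coding gene on the opposite strand. Kcnq3 had 0.08 ± 0.09 (SE, adjusted p = 0.62).

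EAG-type channels (Kcnh1 to Kcnh8) gave no call among 8 genes by edgeR or DESeq2. By edgeR 3 genes had an unadjusted p under 0.05, against 24.9% of all tested genes. Kcnh6, which encodes an ERG channel, was low in level, at 4.75, 5.83 and 5.66 CPM in deficient mice and 3.85, 4.11 and 3.76 CPM in wild type mice, without overlap (log2 fold change 0.47 ± 0.13, SE, adjusted p = 0.0672). Kcnh3, a channel of forebrain neurons, had 0.24 ± 0.10 (SE, adjusted p = 0.196) with overlap, and its exons share 1 base with a gene on the opposite strand. Kcnh4 lay lower in all deficient mice, at 10.1, 13.2 and 11.8 CPM, against 13.3, 13.9 and 14.4 CPM in wild type mice (-0.24 ± 0.11, SE, adjusted p = 0.201). Without deficient mouse 1, 3 genes of the class were called higher, among them Kcnh6 and Kcnh3 (adjusted p = 0.0264 and 0.0124). In that fit 13.6% of all tested genes were called.

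Silent subunits (Kcnf1 and the Kcng, Kcns and Kcnv genes) form no channel alone and change the gating of Kv2 tetramers. Of the 9 members, 7 had a positive log2 fold change, and the class median of 0.24 was the highest among classes with more than 2 members. None passed by edgeR, and 4 had an unadjusted p under 0.05, against 24.9% of all tested genes. DESeq2 called 2 higher, where 8.31% of all tested genes were called. Kcns1 was at 13.3, 16.2 and 16.0 CPM in deficient mice and 11.3, 9.98 and 12.3 CPM in wild type mice, without overlap (log2 fold change 0.44 ± 0.11, SE, adjusted p = 0.0575). Kcnv1, known from cortex and hippocampus, was at 73.6, 118 and 101 CPM in deficient mice and 66.7, 62.0 and 75.0 CPM in wild type mice. Deficient mouse 1 lay inside the range of the wild type mice in Kcnv1, and the log2 fold change was 0.52 ± 0.15 (SE, adjusted p = 0.0811).

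Kcng1 had 0.32 ± 0.11 (SE, adjusted p = 0.117), with all deficient mice higher, and 0.20 (0.224) without deficient mouse 2. Kcng4 had a lower mean and a wide spread in deficient mice, at 66.7, 20.4 and 44.2 CPM, against 62.2, 64.0 and 54.8 CPM in wild type mice. Its log2 fold change was -0.47 ± 0.32 (SE, adjusted p = 0.4), and -0.12 without deficient mouse 2. Without deficient mouse 1, the adjusted p was 0.0451 for Kcng4, 0.00658 for Kcnv1, 0.016 for Kcns1 and 0.0295 for Kcng1. In that fit 13.6% of all tested genes were called. Without deficient mouse 2 the class median was 0.10. Summed by exon length, silent subunits were at 75.8, 90.6 and 86.8 CPM per kb in deficient mice, against 73.6, 69.2 and 76.1 CPM per kb in wild type mice, with deficient mouse 1 inside the range of the wild type mice. The summed level of 6 excitatory neuron markers, none at 0, followed a similar order, at 3694, 5059 and 4604 CPM in deficient mice and 3542, 3308 and 3856 CPM in wild type mice, and its part was not tested.

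**Figure D3:**
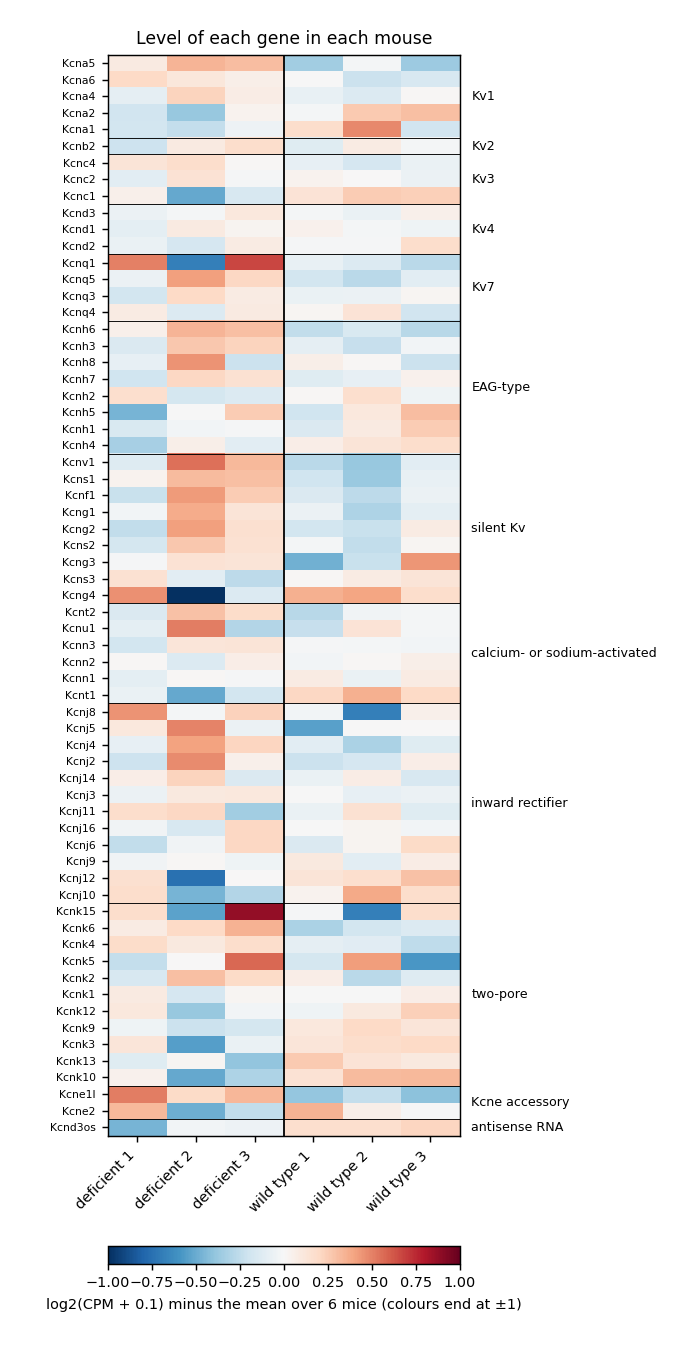
Level of 65 of the 68 members (rows, by class) in each mouse (columns, deficient left of wild type), as log2(CPM + 0.1) minus the mean over the 6 mice. Red is above and blue below the mean, colours end at 1, and in Kcng4 deficient mouse 2 is the darkest blue of the 6 mice.

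Inward rectifiers pass potassium inward more readily than outward. They include G protein-gated channels of neurons, ATP-sensitive channels and the glial channel Kcnj10. None of the 12 genes passed by edgeR, and 2 had an unadjusted p under 0.05, against 24.9% of all tested genes. DESeq2 called 1, Kcnj4, higher, where 8.31% of all tested genes were called. Kcnj4, a strong rectifier of forebrain neurons, was at 98.2, 137 and 121 CPM in deficient mice and 96.5, 83.6 and 95.6 CPM in wild type mice, without overlap (log2 fold change 0.37 ± 0.11, SE, adjusted p = 0.0918). It was called without deficient mouse 1 (0.00926).

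Kcnj10, which clears potassium through astrocytes and is also made by oligodendrocytes, had the highest level per exon length of all members, 74.9 CPM per kb. It was at 449, 287 and 323 CPM in deficient mice and 407, 516 and 447 CPM in wild type mice, and deficient mouse 1 lay inside the wild type range. Its log2 fold change was -0.37 ± 0.15 (SE, adjusted p = 0.179), and without deficient mouse 1 it was -0.58 and was called (0.00999). Without deficient mouse 2 it was -0.24 (0.327) and was not called. Summed markers of astrocytes, 8 with none at 0 and 1 called higher, were at 5351, 5239 and 5618 CPM in deficient mice and 4789, 4847 and 5069 CPM in wild type mice. Summed markers of oligodendrocytes, 10 with none at 0 and 1 called lower, were at 7555, 6192 and 5997 CPM in deficient mice and 8223, 8592 and 7592 CPM in wild type mice. The part of either cell type in the level of Kcnj10 was not tested.

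Kcnj9, which encodes a G protein-gated subunit, did not separate the genotypes, with -0.04 ± 0.06 (SE, adjusted p = 0.686), and its exons overlap those of an antisense gene. Kcnj8, the ATP-sensitive pore of pericytes, was at 5.78, 4.15 and 4.97 CPM in deficient mice and 4.13, 2.59 and 4.37 CPM in wild type mice, with overlap and 0.41 ± 0.21 on the log2 scale (SE, adjusted p = 0.252). Summed markers of endothelial and mural cells, 7 with none at 0, were at 341, 334 and 316 CPM in deficient mice and 316, 275 and 301 CPM in wild type mice, and their part in it was not tested.

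Two-pore-domain channels carry background current that sets the resting potential and responds to acid, stretch and anaesthetics. None of the 11 genes passed by edgeR, and 5 had an unadjusted p under 0.05, against 24.9% of all tested genes. DESeq2 called 1, Kcnk10, lower, where 8.31% of all tested genes were called. Kcnk9, which encodes the acid-sensitive channel TASK-3, was nearest to the threshold, at 21.7, 19.2 and 19.8 CPM in deficient mice, against 24.1, 25.7 and 24.4 CPM in wild type mice. All deficient mice were lower (log2 fold change -0.29 ± 0.07, SE, adjusted p = 0.0517). Kcnk9 was called without deficient mouse 1 (0.019) and without the low-count filter (0.0455, where 5.32% of all genes were called), and not without deficient mouse 2 (0.0903).

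Kcnk10, which encodes the stretch- and lipid-sensitive channel TREK-2, was at 8.37, 5.67 and 6.54 CPM in deficient mice and 9.03, 10.2 and 10.2 CPM in wild type mice, again without overlap. Its log2 fold change was -0.52 ± 0.14 (SE, adjusted p = 0.0763 by edgeR and 0.0377 by DESeq2). Kcnk4, which encodes the related channel TRAAK, lay higher in all deficient mice, at 10.7, 10.03 and 10.6 CPM, against 8.78, 8.66 and 7.83 CPM in wild type mice (0.31 ± 0.09, SE, adjusted p = 0.088). Exons of Kcnk4 overlap those of the gene Catsperz in the same orientation, which leaves its reads uncertain. Kcnk1, at 51.7 CPM per kb the two-pore gene with the highest level per exon length, had -0.04 ± 0.07 (SE, adjusted p = 0.777), and its sign changed without deficient mouse 2. Exons of Kcnk1 overlap those of an antisense gene.

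Per exon length and over all mice, high levels were those of Kcnj10 (74.9 CPM per kb), Kcnk1 (51.7), Kcnj4 (48.9) and Kcnj9 (38.7). By class, inward rectifiers had the largest summed level, at 224, 212 and 214 CPM per kb in deficient mice, against 218, 227 and 227 CPM per kb in wild type mice, with overlap. Kv3 genes came next, at 145, 104 and 123 CPM per kb in deficient mice, against 147, 158 and 154 CPM per kb in wild type mice, and were lower in every deficient mouse. Two-pore genes were at 93.3, 80.9 and 90.9 CPM per kb in deficient mice, against 91.2, 89.9 and 94.0 CPM per kb in wild type mice, again with overlap. These sums are descriptions, since members of a class are not replicates. They weigh the strongest gene most and can differ from the class median.

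**Figure D4:**
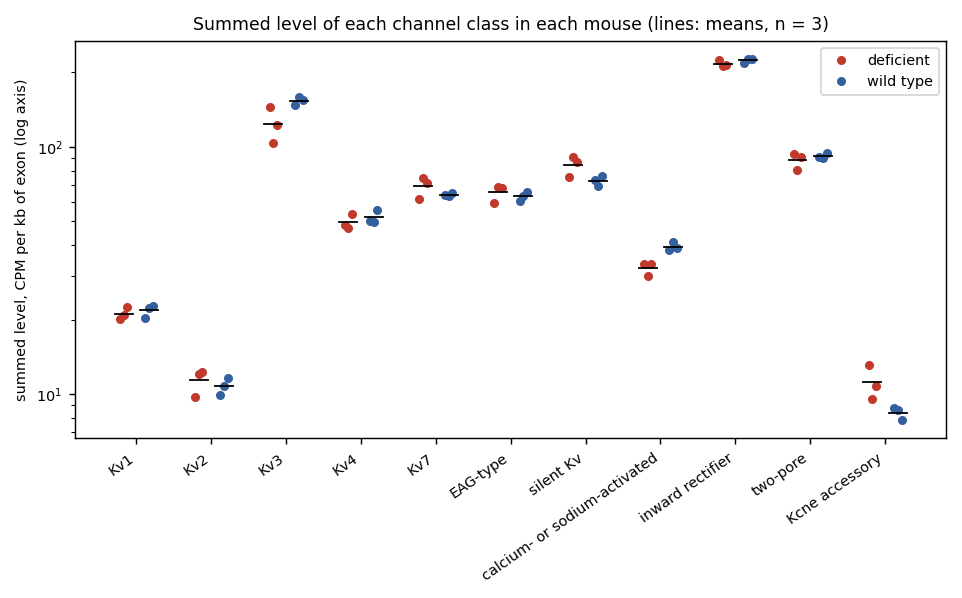
Summed level of each channel class in each mouse, in CPM per kb of exon on a log axis, for deficient (red, left) and wild type (blue, right) mice, with lines at the means. The genotypes do not overlap in Kv3, calcium- or sodium-activated and Kcne accessory genes.

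Deficient mouse 2 was at an extreme in many channel genes. It was the highest of the 6 mice in 26 of the 68 genes (38.2%, against 25.3% of all tested genes) and the lowest in 19 (27.9%, against 26.9%). Its level of Kcng4 was 0.368 of the mean of the other deficient mice, that of Kcnc1 0.725, while that of Kcnv1 was 1.35 and that of Kcnq5 1.26. For Kcne1l the ratio was 0.848, and for Kcnt1 0.763. With this mouse left out, Kcne1l and Kcnt1 were the called members, and the log2 fold changes of Kcnv1 and Kcnc1 were 0.36 and -0.26, against 0.52 and -0.40 with all mice.

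**Figure D5:**
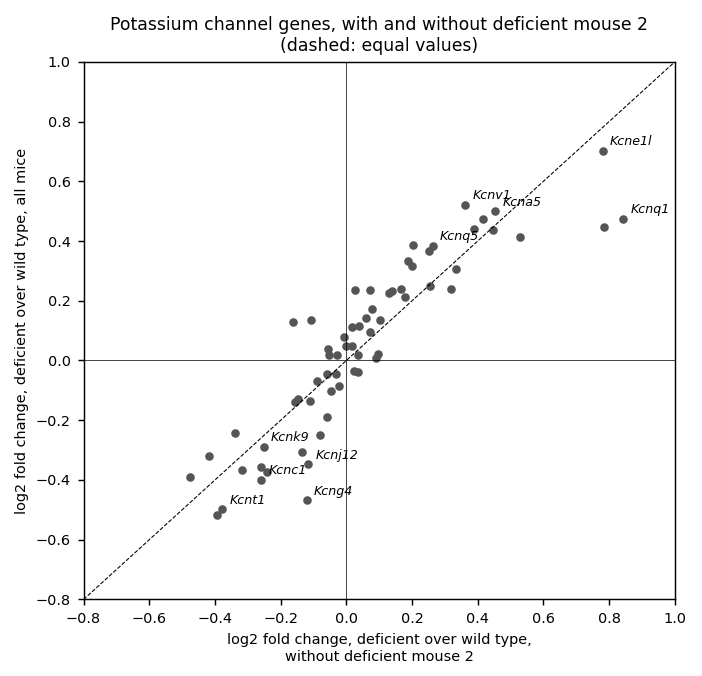
Log2 fold change of deficient over wild type brain for 65 of the 68 members with all mice (vertical axis) and without deficient mouse 2 (horizontal axis), with a dashed line at equal values. Kcnc1 is at -0.26 without deficient mouse 2 and -0.40 with all mice, and Kcne1l is at 0.78 without that mouse and 0.70 with all.

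Partner genes that the symbol pattern does not take were read from a list of 27 by function, of which 24 had enough reads to be tested. Of these, 1 fell and none rose by edgeR (4.93% of all tested genes were called), 10 had an unadjusted p under 0.05 (41.7%, against 24.9% of all tested genes), and the median log2 fold change was -0.03. DESeq2 called 2 lower and none higher, and limma-voom 1 lower and none higher, against 8.31% and 4.65% of all tested genes. The gene that fell was Abcc8, which encodes the sulfonylurea receptor SUR1, the regulatory subunit of ATP-sensitive channels with the pore Kcnj11. It lies on chromosome 7 at 46104523 to 46180033 (GRCm38). Abcc8 was at 42.3, 36.8 and 38.5 CPM in deficient mice, against 55.4, 52.7 and 49.8 CPM in wild type mice. All deficient mice were lower, with a narrow spread in both groups.

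Abcc8 had a log2 fold change of -0.43 ± 0.07 (SE) with adjusted p = 0.0195 by edgeR. Without deficient mouse 1 or 2 it passed (adjusted p = 0.00709 and 0.017), and without deficient mouse 3 or wild type mouse 1, 2 or 3 it did not (0.0559, 0.0925, 0.0988 and 0.0516). Its pore partner Kcnj11, chosen after its values were seen, was at 14.8, 15.1 and 10.3 CPM in deficient mice and 12.5, 14.6 and 12.1 CPM in wild type mice, with overlap and 0.04 ± 0.15 on the log2 scale (SE, adjusted p = 0.895), whose sign changed in the fits without deficient mouse 1, deficient mouse 2 and wild type mouse 3. Whether Abcc8 and Kcnj11 differed in their response was not tested.

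The partner genes next nearest to the threshold also had negative log2 fold changes, while those further from it went both ways. Ank3, which encodes ankyrin-G, the anchor of Kv7 and sodium channels at the axon initial segment, had -0.16 ± 0.05 (SE, adjusted p = 0.094). Kcnab1, a beta subunit that speeds inactivation of Kv1 channels, was at 114, 126 and 115 CPM in deficient mice and 136, 134 and 130.4 CPM in wild type mice (-0.17 ± 0.05, SE, adjusted p = 0.0958), and was called without deficient mouse 2 (0.0309). Exons of Kcnab1 overlap those of an antisense gene. Cntn2, which encodes the adhesion protein that holds Kv1 channels beside the node of Ranvier, had -0.32 ± 0.11 (SE, adjusted p = 0.116) and was called by DESeq2 (0.0273) and without deficient mouse 1 (0.0108), while without deficient mouse 2 it was -0.20 (0.143). In Ank3, Kcnab1 and Cntn2 all deficient mice were below all wild type mice. Among the 24 tested partner genes this held in 6, and all deficient mice were higher in 2 (16% and 14.9% of all tested genes). Of the others with an unadjusted p under 0.05 by edgeR, Lgi1, Kcnmb4, Dpp10 and Dlg4 had 0.17, 0.23, 0.15 and 0.19 on the log2 scale. Kcnip4 and Adam22 had -0.13 and -0.11. Exons of Lgi1, Kcnmb4 and Kcnip4 overlap those of genes on the opposite strand.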

How the data were processed

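RNA from 3 Kdm5c deficient and 3 wild type brains was purified on Qiagen columns and sequenced as Illumina TruSeq libraries, per the labels' protocols. The sources used here give neither the strandedness nor the aligner, counter or annotation. DESeq2 and GRCm38 are named in the submitters' processing notes. The table deposited by the authors holds raw counts per gene symbol, which they had not normalized. Beside the counts the authors deposited, per gene, an average signal, a shrunken log2 fold change of wild type over deficient and its error, a test score and a p-value without adjustment; these were used only to set beside the fits.

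Counts were filtered by edgeR's default rule (minimum count 10, minimum total 15), leaving 15127 genes, and scaled by trimmed mean of M-values. Genotype was tested with edgeR 4.0.16 (quasi-likelihood, R 4.3.3) and Benjamini-Hochberg adjustment over all tested genes at 0.05. Standard errors came from the F statistic. CPM are relative to the scaled library totals (raw totals were 20221675 to 24555412 counts), and CPM per kb use the merged exon length in GENCODE M21 (GRCm38), which matched 39391 of 43344 distinct symbols exactly and 937 through a synonym. Exons of 20 of the 68 members overlap another annotated gene, 1 of them on the same strand. Without a stated use of strand such reads cannot be told apart.

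Alternatives were other scalings and filters, DESeq2 1.42.0, limma-voom (limma 3.58.1), the replicate number as a block, offsets for GC content and length (mgcv 1.9.3), other thresholds and leaving out each mouse. The fits were also run on counts simulated from these libraries with known changes, 50 genes at each size. There edgeR recovered 22% of 1.25-fold, 58% of 1.5-fold, 76% of 2-fold and 98% of 4-fold changes. A gene that was not called is therefore not shown to be unchanged. No pair of mice of one genotype agreed within sampling noise. The members, lists and tests were chosen with earlier results of these data known. Named genes are the called members, up to 3 per class with the smallest p, and the 5 highest per exon length. The 4 largest differences each way at 1 CPM or more and the partner genes nearest the threshold are also named. Kcna1 and Kcnj11 were added after their values were seen. Values of some other genes, such as Kcnma1, Pvalb and partner genes further from the threshold, are given outside this rule. The separate values of 3 members are not reported here, although the counts and sums include them.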

Additional observations from a re-analysis of the deposited data

How the results depend on the processing

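With 1 mouse left out at a time, channel genes called higher ranged from 0 to 13 and lower from 0 to 8, all genes called higher from 38 to 1101 and lower from 6 to 997, and partner genes called higher from 0 to 4 and lower from 0 to 2. Class medians of log2 fold change ranged from 0.0556 to 0.18 for Kv7, -0.0652 to 0.13 for EAG-type, 0.10 to 0.40 for silent Kv and 0.0217 to 0.13 for inward rectifier genes. The log2 fold changes that changed sign in these fits ranged from -0.0321 to 0.15 for Kcnb2, -0.0311 to 0.0566 for Kcnd3, -0.0278 to 0.0709 for Kcnd1, -0.0071 to 0.18 for Kcnq3, -0.0911 to 0.0353 for Kcnk1 and -0.0560 to 0.20 for Kcnj11.

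With no low-count filter, 5 channel genes were higher and 4 lower (13.2%), and 558 and 563 of all genes (5.32%). DESeq2 gave 7 and 4 for channel genes, 602 and 607 for all genes and 2 lower partner genes. At an adjusted p under 0.1 there were 10 higher and 5 lower channel genes and 3 lower partner genes, and at 0.01 there were 0, 0 and 0 (11.8% and 0.291% of all tested genes were called). GC and length offsets called 1 partner gene higher and 1 lower, where 4.86% of all tested genes were called, and put the Kv7 median at 0.18. With a mean of at least 5 CPM the medians were -0.11 for EAG-type, 0.0071 for inward rectifier and -0.24 for two-pore genes. The cause of these shifts was not tested. The filters also changed the set of genes tested, to 21087 without the low-count filter and 11433 at a mean of at least 5 CPM.

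Whether the replicate numbers pair the mice is not known. Deviations from the genotype means correlated at -0.06, -0.06 and 0.14 between mice of the same number. Of the 3 deficient mice, 1 correlated best with the wild type mouse of its own number. Deviations within a genotype sum to 0, so such correlations balance around 0 and cannot decide whether the mice are paired. With the replicate block, 0 channel genes were higher and 0 lower, 49 and 9 of all genes were, and 0 partner genes were lower, with adjusted p-values of 0.0824 for Kcne1l, 0.102 for Kcnt1 and 0.0616 for Abcc8. With the block and the GC and length offsets there were 0 and 0 channel genes, 77 and 23 of all genes, and the Kv7 median was 0.17. In that edgeR fit Abcc8 was called lower (adjusted p = 0.0406), where 0.661% of all tested genes were called. Members under 1 CPM, such as Kcnq1 and Kcnk15, are limited by depth.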

Other observations

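Kcna1, chosen after its values were seen, encodes a Kv1 subunit known to be abundant in brain, yet it had 111 reads over all 6 libraries, against 16160 for Kcna2. Per exon length its mean level was 0.173 CPM per kb, against 10.1 for Kcna2. Kcna1 was at 0.705, 0.671 and 0.783 CPM in deficient mice and 0.931, 1.17 and 0.700 CPM in wild type mice, with overlap and -0.37 ± 0.26 on the log2 scale (SE, adjusted p = 0.416). Kcna3 had no read in any library. How the authors assigned reads to these genes is not given in the sources used here.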
